A study of Saccharomyces cerevisiae with 4 samples.

Results

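The genes of iron uptake of S. cerevisiae were followed in the 4 sequenced strains. They are 10 genes named by their known role: FET3 (YMR058W) and FTR1 (YER145C), FRE1 (YLR214W) and FRE2 (YKL220C), ARN1 (YHL040C), SIT1 (YEL065W) and ENB1 (YOL158C), and FIT1 (YDR534C), FIT2 (YOR382W) and FIT3 (YOR383C). The rule rests on that role and on no measured value, and the genes were proposed with earlier results of these data known. They are 10 of the 6418 genes in the tables, and all 10 were among the 6010 genes that averaged 10 counts or more per library, which are called the tested genes here. In no comparison did a member differ by 2-fold or more.

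RNA-seq was made of 1 library per strain, so that no difference between 2 strains below has a replicate error. The strain byMM1827 carried a denAsCas12a:ScRNA activator directed at the promoter of HED1 and at lexOpR, the stretch upstream of a yEGFP reporter. Its control byMM1777 had denAsCas12a without the ScRNA. The strain byMM1832 carried a dCas12e:ScRNA activator directed at lexOpR and at the promoter of GAL7, and its control byMM1736 had dCas12e without the ScRNA.

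A ScRNA is a guide RNA with an added hairpin that recruits a coat protein. In all 4 strains this protein was MCP-VP64, a fusion with an activation domain, borne by a Trp1 plasmid. All strains also held the Cas protein behind a Ura3 marker and a yEGFP reporter behind a Leu2 marker, in a MATa CEN.PK2-1C background with his3D1, leu2-3_112, ura3-52 and trp1-289 and with MAL2-8c and SUC2. Only byMM1827 and byMM1832 had received the ScRNA cassette, on a plasmid with the His3 marker, and the reporter plasmid was one for the denAsCas12a pair and another for the dCas12e pair. The ScRNA, its plasmid and growth with a working HIS3 therefore cannot be told apart within a pair. Between byMM1736 and byMM1777, the Cas protein and the reporter plasmid cannot be told apart. Cultures were diluted from overnight growth and kept for 8 h. The iron content of their medium is not given in the sources used here.

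The total count per library lay between 37275559 (byMM1777) and 54013763 (byMM1827). HED1 had 30.3 TPM in byMM1827 and 15.8 TPM in byMM1777, and 8.43 TPM in byMM1832 and 16.6 TPM in byMM1736. GAL7 had 3.53 TPM in byMM1832 and 2.05 TPM in byMM1736, and 2.70 TPM in byMM1827 and 1.62 TPM in byMM1777. HED1 was thus higher where it was the target, while GAL7 was higher with a ScRNA in both pairs, also in the one where it was not. HIS3 had 5309 TPM in byMM1827 and 207 TPM in byMM1777, and 2770 TPM in byMM1832 and 255 TPM in byMM1736. Of the mating type markers, the 4 of MATa cells summed to between 1872 and 2671 TPM and the 3 of MATalpha cells to between 43.4 and 52.4 TPM, with none at 0. TPM is a count taken per length of the gene and brought to a common sum, so that levels of different genes can be compared.

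Yeast takes up iron by 2 routes that meet at the plasma membrane. In the reductive route, surface reductases turn ferric into ferrous iron, which a complex of a multicopper oxidase and a permease then carries into the cell. In the other route, iron bound to siderophores, the iron carriers that microbes release, is held in the cell wall by mannoproteins and taken up by transporters of the ARN family. When iron is scarce, the factors Aft1 and Aft2 bind the promoters of these genes and raise their transcription, while in iron-replete cells they are low.

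The word TGCACCC, a form of the site that Aft1 binds, was searched on both strands in front of each gene. It holds the shorter words GCACCC and CACCC. In the window of 250 bases before to 50 bases after the start codon it stood in 6 of 10 members (FTR1, SIT1, ENB1, FIT1, FIT2 and FIT3), against 78 of 6020 promoters in all, or 1.30%. In a window of 600 bases before the start codon, chosen after seeing the data, it stood in 9 of 10 members and in 2.68% of 6018 promoters. FRE1 was the member with no match there. The match of FET3 begins 251 bases before the start codon, so that its far end lies just outside the shorter window, with 244 bases between it and the start codon. CACCC alone stood in 8 of 10 members and 19.97% of all promoters, and GCACCC in 7 of 10 members and 4.24%, both in the shorter window. The matches number 16 in 9 genes. Those nearest to the start codon are shown for the 9 members that hold the word in the longer window. Each has 10 bases on each side and is read 5′ to 3′ on the strand that spells the word, in capitals. The distance given is the number of bases between the word and the start codon.
FTR1, 168 bases before the start codon, coding strand: cgtagatgaaTGCACCCgatttctaag
FET3, 244 bases before, coding strand: tcttcaaaagTGCACCCatttgcaggt
FRE2, 423 bases before, coding strand: tattcgtaatTGCACCCaggtcttttt
ARN1, 253 bases before, coding strand: tttatcaaaaTGCACCCataaaagcag
SIT1, 181 bases before, other strand: cgaaccagatTGCACCCtcaaatgtgt
ENB1, 130 bases before, coding strand: ggcttacaatTGCACCCctctgtggct
FIT1, 175 bases before, other strand: ttcattttttTGCACCCtttcctagaa
FIT2, 124 bases before, other strand: ctaattatacTGCACCCagttagattc
FIT3, 177 bases before, other strand: cccattttttTGCACCCtttcctagaa

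The sequences are those of the RefSeq assembly R64 of strain S288C, not of the strains sequenced. The stretches of FIT1 and FIT3 shared a run of 25 bases, at nearly the same distance from the start codon, and no other pair of members was compared in this way. FIT2 had 4 matches in the longer window, FTR1, ENB1, FIT1 and FIT3 had 2 each, and FET3, ARN1, SIT1 and FRE2 had 1 each. A match is a description of the letters and not a measured site of binding. Since Aft1 is known to bind the promoters of these genes, their higher share of matches could be foreseen from their choice.

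**Figure D1:**
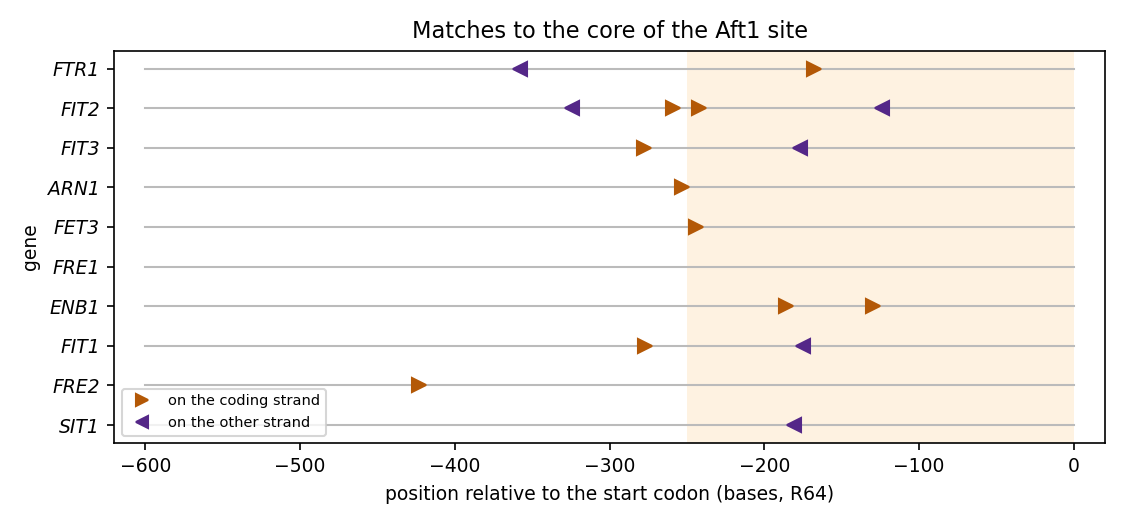
Position of each match to TGCACCC in front of the 10 members, in bases relative to the start codon in R64, with triangles pointing right for matches on the coding strand and left for those on the other strand. The shaded part holds the 250 bases before the start codon. Each triangle stands at the end of the match nearer to the start codon, so that FET3 is marked inside the shaded part though its far end lies outside. FRE1 has no match and FRE2 only 1, at 423 bases.

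The members were transcribed at low to middling levels in all 4 strains. Their TPM summed to 306 in byMM1827 and 307 in byMM1777, and to 351 in byMM1832 and 301 in byMM1736, which was between 0.0301% and 0.0351% of all TPM. FTR1 and FIT2 led in every library. FET3, ARN1 and FIT3 came next with 31.8 to 47.7 TPM, then FRE1 and ENB1 with 13.7 to 23.4 TPM. SIT1, FIT1 and FRE2 stayed under 7 TPM everywhere. FTR1 stood between the 60.5th and the 74.6th percentile of the tested genes, and SIT1, FIT1 and FRE2 between the 6.19th and the 9.58th.

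The order of FTR1 and FIT2 changed between the pairs. FIT2 was the higher of them in byMM1827, FTR1 in byMM1832 and byMM1736, and in byMM1777 their 95% intervals overlapped. Intervals of neighbours in the order also overlapped for FIT3 and FET3 in byMM1832 and for several of SIT1, FIT1 and FRE2 in each library. These intervals come from the counts, 369 to 6353 per gene and library, and cover counting error only, since reads from amplified libraries are not independent molecules. The levels are shares of the RNA of a whole culture, in which less RNA per cell and fewer cells that make it cannot be told apart.

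**Figure D2:**
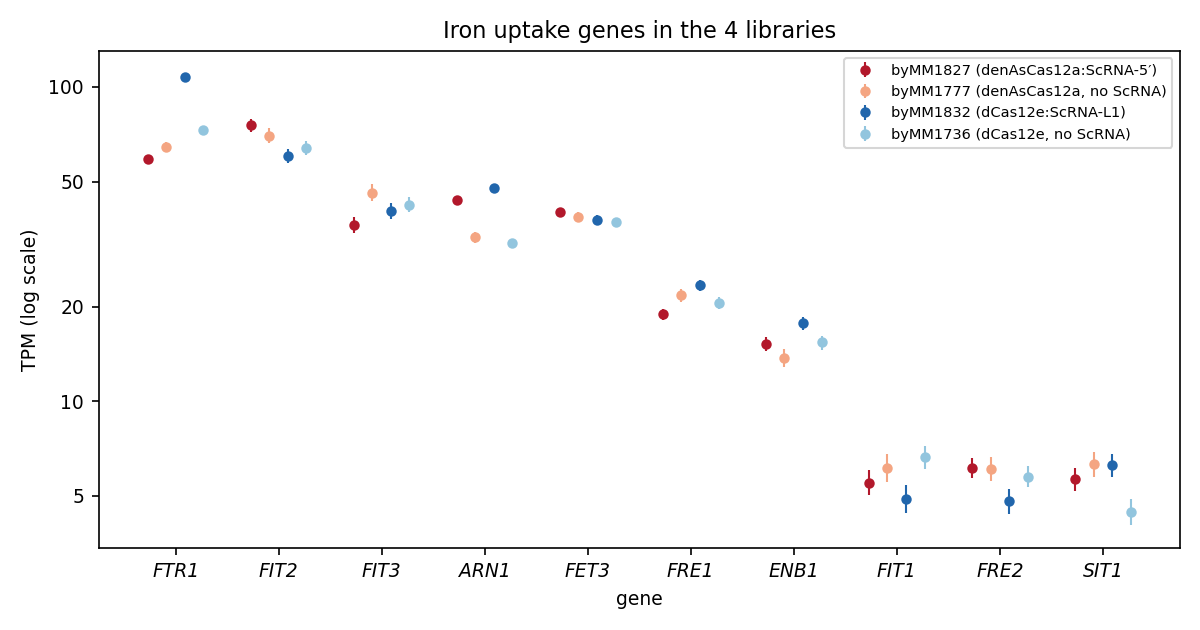
TPM of the 10 members on a log axis in byMM1827, byMM1777, byMM1832 and byMM1736, ordered by mean, with bars for the 95% Poisson interval of the count in that 1 library. FTR1 stands at 107.8 TPM in byMM1832 and at 58.8 to 73.0 TPM in the other strains, while FET3 lies between 37.1 and 40.1 TPM in all 4.

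The comparisons were not centred at 0 across all tested genes. The median log2 TPM ratio was -0.16 for byMM1827 over byMM1777 and 0.03 for byMM1832 over byMM1736, and -0.22 for byMM1736 over byMM1777. byMM1777 had the highest median level of a tested gene, 44.3 TPM, against 37.2 to 39.1 TPM in the other libraries.

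FTR1 encodes the iron permease of the high-affinity complex. It had 58.8 TPM in byMM1827 and 64.6 TPM in byMM1777, a ratio of 0.911 (95% counting interval 0.868 to 0.956). It had 107.8 TPM in byMM1832 and 73.0 TPM in byMM1736, a ratio of 1.48 (1.42 to 1.53). The level in byMM1832 was above those of the other 3 libraries, and set against byMM1827 it was 1.83 times as high (1.76 to 1.91).

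FET3 encodes the multicopper oxidase that works as one complex with Ftr1. It had 40.1 TPM in byMM1827 and 38.6 TPM in byMM1777, a ratio of 1.04 (0.991 to 1.09). It had 37.7 TPM in byMM1832 and 37.1 TPM in byMM1736, a ratio of 1.02 (0.971 to 1.07). In TPM, its highest library was 1.08 times its lowest. That was the narrowest range of the 10 members, at percentile 1.33 of this measure among the tested genes, while FTR1 with 1.83 was at the 85.5th percentile. Relative to the all-gene median, FET3 was 0.22 higher on the log2 scale in byMM1827 over byMM1777 and 0.16 higher in byMM1736 over byMM1777. In byMM1832 over byMM1736 it was at -0.01. The transcripts of these partners thus did not keep 1 proportion: FTR1 was 1.47 times FET3 in byMM1827 and 1.67 times in byMM1777, and 2.86 times in byMM1832 and 1.97 times in byMM1736.

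FRE1 and FRE2 encode surface reductases that reduce ferric and cupric ions. FRE1 had 18.9 TPM in byMM1827 and 21.8 TPM in byMM1777, and 23.4 TPM in byMM1832 and 20.6 TPM in byMM1736. Its ratio was 0.868 (0.814 to 0.925) for byMM1827 over byMM1777 and 1.14 (1.07 to 1.21) for byMM1832 over byMM1736, but the lower ratio was near the centre of all genes. Relative to the all-gene median, FRE1 was at -0.04 on the log2 scale (percentile 43.2) in byMM1827 over byMM1777 and at 0.15 (percentile 68.9) in byMM1832 over byMM1736. FRE2 had 6.13 TPM in byMM1827 and 6.09 TPM in byMM1777, a ratio of 1.01 (0.897 to 1.13). In the other pair FRE2 had 4.80 TPM in byMM1832 and 5.75 TPM in byMM1736, a ratio of 0.835 (0.741 to 0.939). Within the dCas12e pair the reductases thus went opposite ways, and FRE1 was 4.88 times FRE2 in byMM1832 and 3.58 times in byMM1736.

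ARN1 encodes a transporter for siderophores of the ferrichrome family. It was the member with the highest ratio in both pairs. It had 43.7 TPM in byMM1827 and 33.3 TPM in byMM1777, a ratio of 1.31 (1.25 to 1.38), and 47.7 TPM in byMM1832 and 31.8 TPM in byMM1736, a ratio of 1.5 (1.43 to 1.57). Both strains with a ScRNA lay above both controls, which differed from each other by a ratio of 0.956 for byMM1736 over byMM1777 (0.906 to 1.01). Among all tested genes the ratios of ARN1 in the denAsCas12a and the dCas12e pair stood at the 94.5th and the 95.5th percentile, each taken alone. The share of tested genes with both ScRNA strains above both controls was not taken, so this order shows no trait of ARN1.

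SIT1 and ENB1 encode the transporters of ferrioxamine B and of enterobactin. SIT1 had 5.64 TPM in byMM1827 and 6.30 TPM in byMM1777, a ratio of 0.895 (0.790 to 1.01). It had 6.25 TPM in byMM1832 and 4.43 TPM in byMM1736, a ratio of 1.41 (1.24 to 1.60). The byMM1736 library was the low one here, since byMM1832 and byMM1777 had nearly the same level. ENB1 had 15.2 TPM in byMM1827 and 13.7 TPM in byMM1777, a ratio of 1.11 (1.02 to 1.20), and 17.7 TPM in byMM1832 and 15.4 TPM in byMM1736, a ratio of 1.15 (1.07 to 1.24). ENB1 was thus a little higher with the ScRNA in both pairs, though its log2 ratio in byMM1827 over byMM1777, 0.15 in TPM, ranged over 5 scalings from -0.07 relative to ACT1 to 0.31 with DESeq2 size factors, and was 0.31 above the all-gene median. In aligned residues of the R64 proteins, Arn1 is 50.1% identical to Sit1 and 34.0% to Enb1, and all 31-base words of the 3 genes occur once in the genome, so that reads of that length could be assigned to one of them.

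FIT1, FIT2 and FIT3 encode mannoproteins anchored in the cell wall that retain siderophore iron. FIT2 had 75.5 TPM in byMM1827 and 70.0 TPM in byMM1777, a ratio of 1.08 (1.003 to 1.16), and 60.3 TPM in byMM1832 and 64.05 TPM in byMM1736, a ratio of 0.942 (0.875 to 1.01). FIT3 had 36.4 TPM in byMM1827 and 46.1 TPM in byMM1777, a ratio of 0.789 (0.726 to 0.857), which was the lowest of the members in this pair. FIT3 had 40.3 TPM in byMM1832 and 42.2 TPM in byMM1736, a ratio of 0.954 (0.882 to 1.03). FIT2 and FIT3 lie side by side with their 3′ ends facing each other. FIT2 was 2.08 times FIT3 in byMM1827, against 1.52 times in byMM1777, and 1.5 times in byMM1832, against 1.52 times in byMM1736.

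FIT1 was the least abundant of the mannoprotein genes and had the lowest ratio of the members in the dCas12e pair. It had 5.51 TPM in byMM1827 and 6.13 TPM in byMM1777, a ratio of 0.899 (0.783 to 1.03), and 4.87 TPM in byMM1832 and 6.62 TPM in byMM1736, a ratio of 0.736 (0.644 to 0.840). Fit1 and Fit3 are identical in 60.8% of aligned residues. Only 82.3% of the 31-base words of FIT1 occur once in the genome, so that its count may be less certain than those of the other members. Whether its repeated words recur within FIT1 or in other genes was not examined. The share of words that occur once was 97.3% for FIT3, 99.8% for FRE2 and 100% for the other members.

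Relative to the medians of all tested genes, ARN1 was 0.55 higher on the log2 scale in byMM1827 over byMM1777 and 0.55 higher in byMM1832 over byMM1736, and FTR1 0.53 higher in the dCas12e pair. Another scaling moves all genes of a comparison by nearly the same amount. TMM factors, DESeq2 size factors and ACT1 moved the median of byMM1827 over byMM1777 by 0.16, 0.16 and -0.22, so that a sign is kept only by ratios larger than such a shift. Over 5 scalings (TPM, counts per total count, TMM factors, DESeq2 size factors and ACT1) these were ARN1 (higher), FIT3 and FRE1 (lower) in that comparison, and the signs of the other 7 members turned under at least 1. FRE1 came there to only -0.04 with DESeq2 size factors. In byMM1832 over byMM1736 the shifts were smaller. The members that kept their sign were FTR1, ARN1, SIT1, ENB1 and FRE1 (higher) and FIT1, FIT2, FIT3 and FRE2 (lower). The sign of FET3 turned, and the counting intervals of FIT2 and FIT3 included a ratio of 1. The share of all tested genes that kept their sign was not taken, so these lists show no trait of the members.

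In byMM1827 over byMM1777, 0 of 10 members were 2-fold or more higher or lower, where 0.765% of the tested genes were higher and 0.632% lower by that much. At 1.5-fold the members again numbered 0 in either direction, against 2.38% of the tested genes higher and 5.71% lower. The members' median log2 ratio was -0.06, which is 0.10 above the median of all tested genes, and 8 of 10 lay above that median. SIT1, FIT1 and FTR1 were above it by only 0.0003, 0.007 and 0.026. With counts per total count, TMM factors or DESeq2 size factors, 7 of 10 lay above the median. All 10 lay between the 5th and the 95th percentile of the tested genes, from -0.60 to 0.42.

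In byMM1832 over byMM1736, 0 of 10 members passed 2-fold, where 0.849% of the tested genes were higher and 2.65% lower. At 1.5-fold, 1 member was higher, ARN1, which sat on that limit, and 0 were lower, against 4.48% of the tested genes higher and 6.97% lower. The members' median was 0.11, or 0.07 above the median of all tested genes, with 5 above and 5 below it. The siderophore transporters and FTR1 made up the upper end, and the 3 mannoprotein genes and FRE2 the lower.

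The pairs were also tested together, as a fit added after the data were seen. edgeR's quasi-likelihood test compared the strains with a ScRNA with their controls on the counts of all 6010 tested genes, with the Cas protein as a block, which leaves 1 residual degree of freedom. The spread it measures is the difference between the pairs, which also differ in the Cas protein, the reporter and the target. By edgeR 0 of 10 members had an adjusted p under 0.05, and so had 0.00% of all tested genes. At an unadjusted p under 0.05 stood 1 member, ARN1, and 8.39% of the tested genes. Its fitted log2 ratio was 0.55, higher in both pairs, with an edgeR adjusted p of 0.535. DESeq2 with the same design called 0 of 10 members and 0.765% of the tested genes, with an adjusted p of 0.352 for ARN1. For the other 9 members the fitted log2 ratio lay between -0.24 and 0.28. These values do not show that the members did not differ.

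Without a ScRNA the strains compared are byMM1736, with dCas12e, and byMM1777, with denAsCas12a. Again 0 of 10 members passed 2-fold, where 0.799% of the tested genes were higher and 1.08% lower in byMM1736, and 0 passed 1.5-fold, against 2.51% higher and 11.0% lower. The members' median was -0.07, or 0.14 above the median of all tested genes, and 9 of 10 lay above that median. The exception was SIT1. It had 4.43 TPM in byMM1736 and 6.30 TPM in byMM1777, a ratio of 0.704 (0.616 to 0.804), the lowest of the members and lower under all 5 scalings. FTR1 had 73.0 TPM in byMM1736 and 64.6 TPM in byMM1777, a ratio of 1.13 (1.08 to 1.18), and its log2 ratio, 0.18 in TPM, was 0.39 above the all-gene median and ranged over the 5 scalings from -0.02 relative to ACT1 to 0.40 with DESeq2 size factors. The other 8 had ratios of 0.915 to 1.12. These comparisons share libraries, since each control also serves in the pair with its ScRNA strain.

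**Figure D3:**
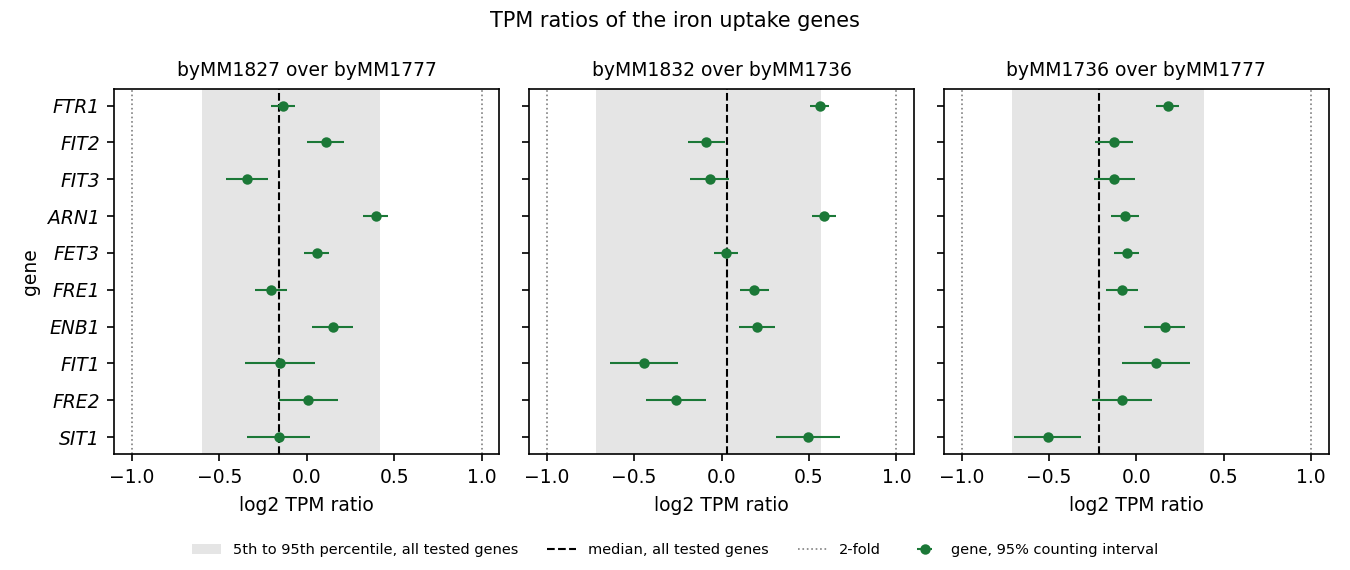
Log2 TPM ratio of each member in byMM1827 over byMM1777, byMM1832 over byMM1736 and byMM1736 over byMM1777, with 95% counting intervals. The grey band holds the 5th to 95th percentile of all tested genes, the dashed line is their median and the dotted lines mark 2-fold, which no member reaches; ARN1 in the middle panel is the only member beyond the band.

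Summed by role, the dCas12e pair differed in the complex and the transporters, and the transporters also differed in the denAsCas12a pair. FET3 and FTR1 together had 98.9 TPM in byMM1827 and 103 TPM in byMM1777, and 146 TPM in byMM1832 and 110 TPM in byMM1736. ARN1, SIT1 and ENB1 together had 64.6 TPM in byMM1827 and 53.3 TPM in byMM1777, and 71.6 TPM in byMM1832 and 51.6 TPM in byMM1736. The first of these differences came from FTR1 and the second mostly from ARN1. The mannoprotein genes summed to 117 TPM in byMM1827 and 122 TPM in byMM1777, and to 105 TPM in byMM1832 and 113 TPM in byMM1736. FRE1 and FRE2 together kept between 25.0 and 28.2 TPM in all 4 libraries.

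**Figure D4:**
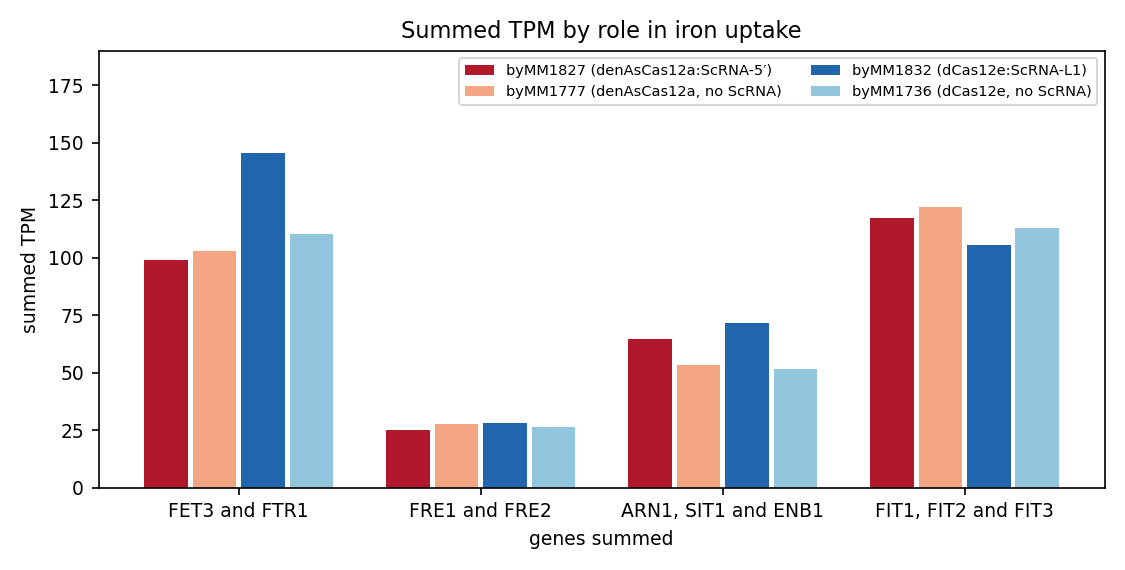
Summed TPM of the members of each role in byMM1827, byMM1777, byMM1832 and byMM1736, on an axis from 0, with no error bars since each bar is 1 library. The bar of FET3 and FTR1 in byMM1832, at 146 TPM, is the tallest, and those of FRE1 and FRE2 lie between 25.0 and 28.2 TPM.

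Across the 4 libraries the highest level of a member was 1.08 to 1.83 times its lowest. The median of this measure was 1.28 for the members and 1.39 for the tested genes, with FTR1, ARN1 and SIT1 above that of the tested genes. It was taken in TPM only and under no other scaling. In byMM1777, log2 TPM less its mean over the 4 libraries had a median of 0.05 for the members. For all genes averaging 100 counts or more that median was 0.15, an offset that enters their range. The 5 other genes whose log2 TPM over the 4 libraries, set to a mean of 0, lay nearest to the members' median profile were YKR041W, ELP2, SEC62, SFT2 and TPS2. This likeness says little, since 2404 of 5724 other genes averaging 100 counts or more lay nearer to that profile than the median member did.

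AFT1 and AFT2, the iron-responsive activators, had nearly equal levels in the dCas12e pair, where the log2 ratio was 0.06 for AFT1 and 0.04 for AFT2. In the other pair their log2 ratios were -0.28 and -0.41, or -0.12 and -0.25 relative to the all-gene median. AFT1 had 20.1 TPM in byMM1827 and 24.4 TPM in byMM1777, and 20.02 TPM in byMM1832 and 19.2 TPM in byMM1736. AFT2 had 30.2 TPM in byMM1827 and 40.2 TPM in byMM1777, and 27.6 TPM in byMM1832 and 26.8 TPM in byMM1736. For both genes byMM1777 was the high library, as it was for the median of all tested genes. The log2 ratio of byMM1736 over byMM1777 was -0.35 for AFT1 and -0.58 for AFT2, or -0.13 and -0.37 relative to the all-gene median. TIS11, whose protein (also called Cth2) promotes decay of mRNAs of iron-using enzymes and is itself induced by Aft1, had 24.4 TPM in byMM1827 and 24.3 TPM in byMM1777, and 40.3 TPM in byMM1832 and 29.5 TPM in byMM1736. Its ratio in the dCas12e pair was 1.36 (1.27 to 1.47), and byMM1832 was its highest library. The highest library of a member was byMM1832 for 4 of 10 (FTR1, ARN1, ENB1 and FRE1), byMM1827 for 3, byMM1777 for 2 and byMM1736 for 1. For 3 members (FIT1, FIT2 and FRE2) byMM1832 was the lowest library. The share of all tested genes with byMM1832 as highest was not taken, so these counts show no trait of the members.

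Beyond the 10 members, 63 other genes of iron metabolism were listed in 7 groups, and 62 were tested. Past 2-fold were 0 of them in byMM1827 over byMM1777, 0 in byMM1832 over byMM1736, and 1 in byMM1736 over byMM1777, or 1.61% of them, where 1.08% of all tested genes were lower by that much. This was LSO1, a small gene induced when iron is scarce, with 54 counts or 3.60 TPM in byMM1736 and 78 counts or 7.27 TPM in byMM1777, a ratio of 0.494 (0.343 to 0.708). It was no longer past 2-fold with TMM factors, DESeq2 size factors, counts per total count, thinned libraries or a pseudocount, and it averaged fewer than 100 counts. The untested gene was ARN2, the 4th transporter of the ARN family. It had 0 counts in all 4 libraries, although all of its 31-base words are unique in R64. Whether the sequenced strains carry ARN2 in the form of R64 was not tested.

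At 1.5-fold, 0 of the 62 were higher and 3 lower in byMM1827 over byMM1777, or 4.84%, against 5.71% of all tested genes lower. They were ATX1, the copper chaperone on the way to Fet3 (log2 ratio -0.95), HEM3, an enzyme of heme synthesis (-0.70), and MAC1, the copper-responsive activator (-0.61). In byMM1832 over byMM1736, 2 were higher (3.23%, against 4.48% of all tested genes) and 1 lower (1.61%, against 6.97%). These were SMF1, a transporter of manganese and other divalent metals (0.67), LEU1, an iron-sulfur enzyme of leucine synthesis (0.62), and CTR3, a copper transporter (-0.78, from 81 counts in byMM1832 and 151 in byMM1736). In byMM1736 over byMM1777, 0 were higher and 5 lower, or 8.06%, against 11.0% of all tested genes lower. These shares are not above those of all tested genes.

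Group medians lay on both sides of the median of all tested genes. In byMM1827 over byMM1777 they lay from -0.29 for the 9 regulators (lowest AFT2 at -0.41, highest GRX3 at 0.14) to 0.00 for the 14 tested genes of the other Aft1/Aft2 regulon (lowest ATX1, highest ISU1 at 0.52). In byMM1832 over byMM1736 they lay from -0.38 for the 3 genes of iron storage and Yap5 targets (lowest MRS3 at -0.46, highest TYW1 at -0.26) to 0.20 for the 14 genes of Fe-S cluster assembly (lowest ISA1 at -0.19, highest NFS1 at 0.39). The other Aft1/Aft2 regulon, which answers to the same factors as the members, had a median of 0.07 in that pair, with 7 genes above and 7 below the median of all tested genes (lowest LSO1 at -0.55, highest FRE6 at 0.48). Over all 62 genes the medians were -0.15, 0.00 and -0.19 in the 3 comparisons, where the median of all tested genes was -0.16, 0.03 and -0.22.

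**Figure D5:**
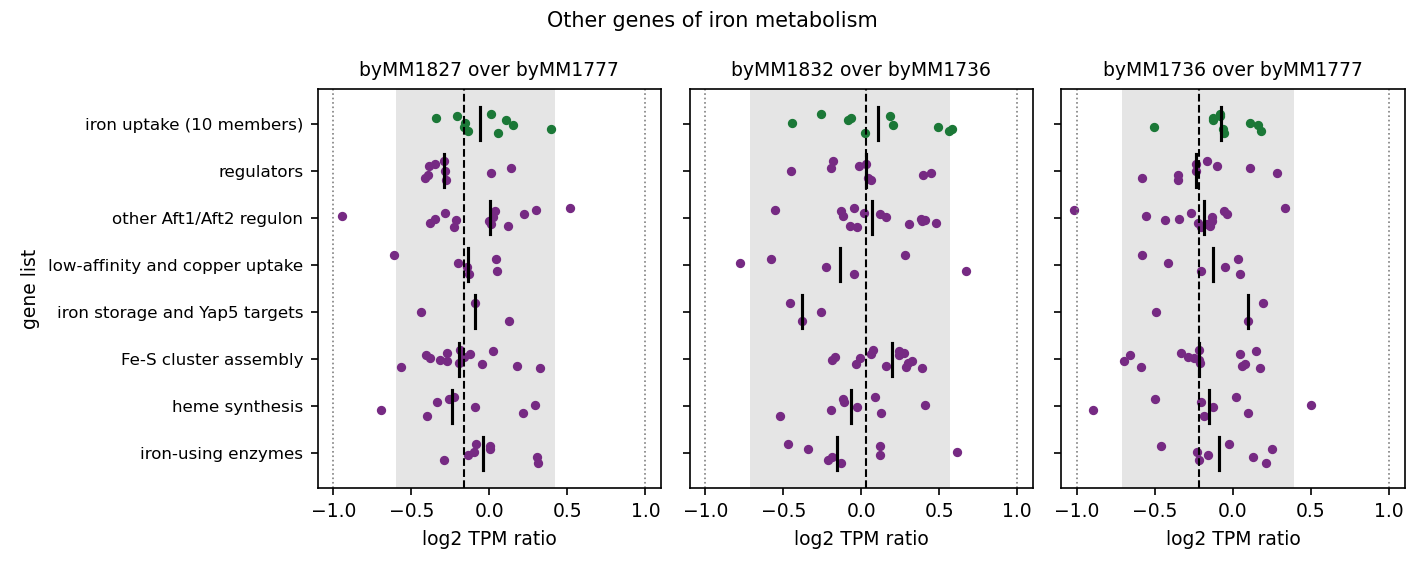
Log2 TPM ratios of the 10 members (green) and of the tested genes of the 7 other groups (purple) in byMM1827 over byMM1777, byMM1832 over byMM1736 and byMM1736 over byMM1777, with a black bar for each group's median. The grey band holds the 5th to 95th percentile of all tested genes and the dashed line their median; LSO1 in the right panel is the only point past the dotted 2-fold lines.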

How the data were processed

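Sangon Biotech sequenced the Trizol-extracted RNA of 4 strains, 1 library each. The deposited files are a table of raw counts of reads per gene, whole and not normalized, and a table of TPM, which the authors made from the counts by dividing by gene length and setting nearly equal sums per library. The submitters' processing notes name FastQC, Trimmomatic, HISAT2, bedtools, StringTie and DESeq2, with no versions. Genome build and use of strand are not given in the sources used here, so no coordinates are printed. Gene lengths implied by counts and TPM were within 1% of those of R64 for 94.8% to 95.0% of the genes compared. Of the gene identifiers, 6017 matched RefSeq. Each table held 2 further columns of strains outside the series, 4 in all, which were not used. The deposited tables of the authors' own comparisons hold fold changes and p-values and were not used.

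TPM ratios used no pseudocount. Where a library had 3 counts or fewer, the TPM worth of 3 counts took their place. Ratios have a 95% Clopper-Pearson interval and levels a 95% Poisson interval from the counts. Shares past 2-fold or 1.5-fold were taken over genes that averaged 10 counts or more per library. With 1 library per strain, no model was fitted within a pair. A fit over both pairs with the Cas protein as block was added after seeing the data, with edgeR's quasi-likelihood test and, as an alternative, DESeq2, both with Benjamini-Hochberg adjustment. These and the scaling factors came from edgeR 4.0.16 and DESeq2 1.42.0 in R 4.3.3, and the rest from Python 3.11.15 (pandas 2.3.3, numpy 2.4.6, scipy 1.17.1, biopython 1.88 and matplotlib 3.10.9). The ratios and the fit were run on simulated data with known changes. For the fit these changes were larger than that of any member, so whether it could call smaller ones was not tested.

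The members and gene lists were chosen with earlier results of these data known. Named are all members, AFT1, AFT2 and TIS11, other iron genes past 2-fold with at least 50 counts in 1 library or otherwise the ends of a group, the check genes, and the 5 genes of nearest profile. The genes past 1.5-fold were named after their values were seen. The alternatives were pseudocounts of 1 and 0.1 TPM, other scalings, libraries thinned to the smallest, a mean of at least 100 counts, and thresholds of 1.5-fold and 3-fold. GCACCC and the 600-base window were added after seeing the data.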

Additional observations from a re-analysis of the deposited data

Results flagged for a closer look

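FRE1 had TPM ratios on opposite sides of 1 in the pairs. It had 23.4 TPM in byMM1832 and 20.6 TPM in byMM1736, a log2 ratio of 0.19, and 18.9 TPM in byMM1827 and 21.8 TPM in byMM1777, a log2 ratio of -0.20. The ratios differ by 0.39 on the log2 scale. Relative to the median of all tested genes they were 0.15 and -0.04 (percentiles 68.9 and 43.2), a difference of 0.20, so that the second was near the centre of all genes and within its counting error of that median. With 1 library per strain the difference was not tested. Over 5 scalings the log2 ratio lay between 0.09 and 0.19 for byMM1832 over byMM1736 and between -0.42 and -0.04 for byMM1827 over byMM1777.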

How the results depend on the processing

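Each strain has 1 library, so spread between cultures is unknown and intervals cover counting error only. The labels give no replicate numbers. A paired fit over both pairs, with the Cas protein as block and 1 residual degree of freedom, called 0 members with edgeR and 0 with DESeq2. Leaving out a library would leave no residual degree of freedom. The count of members past 2-fold stayed 0 in all 3 comparisons under every scaling, pseudocount and filter tried. At 1.5-fold it was 1 in byMM1832 over byMM1736. The members' median log2 ratio in byMM1827 over byMM1777 was 0.10 with TMM factors, 0.10 with DESeq2 size factors and -0.28 relative to ACT1. In byMM1832 over byMM1736 it was 0.0076 relative to ACT1. In byMM1736 over byMM1777 it was 0.14 with TMM factors, 0.15 with DESeq2 size factors and -0.28 relative to ACT1. These shifts move all genes of a comparison alike. The number of other iron genes past 2-fold was 1 relative to ACT1 and 3 at 1.5-fold in byMM1827 over byMM1777, and 3 at 1.5-fold in byMM1832 over byMM1736. In byMM1736 over byMM1777 it was 2 relative to ACT1 and 5 at 1.5-fold, and 0 with TMM factors, DESeq2 size factors, counts per total count, thinned libraries, pseudocounts of 1 and 0.1 TPM, a mean of at least 100 counts or 3-fold. Of the 210 ratios of members under alternatives, 152 stayed within the counting interval of the reported ratio and 58 left it.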
